A study of Mus musculus with 12 samples.

Results

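Insr, Irs1, Irs2, Akt2, Slc2a4, Tbc1d4, Pde3b, Foxo1 and Fam13a are 9 genes that carry the insulin signal and take up glucose in fat. They were taken by symbol from a table of 30268 genes in gonadal white adipose tissue, and all 9 were found and tested. The tissue came from male C57BL/6 mice that were wild type (WT) or lacked the microRNA miR-10a (KO). Feeding lasted 16 weeks from 8 weeks of age, on normal chow (NCD, for normal chow diet) or on a diet rich in fat (HFD). Each of the 4 groups, WT_NCD, KO_NCD, WT_HFD and KO_HFD, had 3 mRNA-seq libraries, called biological replicates in the labels. The labels do not say in which cells or by which allele the microRNA was removed.

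Insulin binds a receptor tyrosine kinase (Insr) that phosphorylates docking proteins (Irs1, Irs2), which recruit phosphatidylinositol 3-kinase and so activate the kinase AKT2. In fat cells AKT2 phosphorylates AS160 (Tbc1d4), which then lets vesicles carrying the glucose transporter GLUT4 (Slc2a4) reach the cell surface. The same kinase activates a phosphodiesterase that lowers cAMP and slows lipolysis (Pde3b) and keeps the transcription factor FOXO1 out of the nucleus. Fam13a encodes a protein with a RhoGAP domain that has been tied to insulin signalling in adipocytes and, by human genetics, to body fat distribution.

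Values are FPKM, fragments scaled by transcript length and by library size, so levels can be set side by side between genes. Libraries are named by group and by the number in their column header, such as KO_HFD 8. The depth of the libraries is unknown, because the table holds no counts. The FPKM values of a library summed to between 420126 and 455434 on NCD and between 383633 and 413425 on HFD. Mitochondrially encoded genes made up 14.6% to 17.5% of that sum on NCD and 7.52% to 13.1% on HFD. Defining adipocyte transcripts were present in every library, with Adipoq, which encodes adiponectin, at 376 to 2517 FPKM. Ciliated epithelium markers summed to 37.9 to 75.2 FPKM in WT_NCD 2, WT_NCD 4 and KO_NCD 2 and to 2.22 to 5.39 in the rest. Of 12 markers of skeletal muscle, another tissue rich in GLUT4, 3 reached 1 FPKM in at least 3 libraries, and the 12 summed to 13.7 to 24.0 FPKM on NCD and 9.66 to 15.5 on HFD. Acta1 was at 6.80 to 19.7 FPKM, while Ckm was at most at 0.113 and Myh4 at most at 0.0058. The row of the targeted gene, Mir10a, lay between 0.0221 and 0.425 FPKM in WT and KO libraries alike, and checks nothing about genotype, since mRNA libraries do not measure a mature microRNA.

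The genes were searched for letters that match the missing microRNA. Mature miR-10a-5p, from chromosome 11, 96317186 to 96317208 on the plus strand (RefSeq, GRCm38.p6, the assembly called mm10), is shown with its seed, bases 2 to 8, in capitals. Its relative miR-10b-5p from chromosome 2, which the KO mice were not labelled to lack, is printed after it and has the same seed.
miR-10a-5p: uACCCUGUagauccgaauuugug
miR-10b-5p: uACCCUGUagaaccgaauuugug
The match to that seed, on the transcript strand, was searched in the longest annotated 3' UTR of each gene (GENCODE M21, GRCm38). Of the 9 genes, 6 held at least 1 match, against 14.45% of the 12509 tested genes with such a UTR. Their UTRs ran from 826 to 6240 bases, beside a median of 1136 bases over those 12509 genes, and no allowance was made for length. A single match adjoined by the A that makes an 8-base site was in Fam13a. The match of Slc2a4 starts at base 9 of its UTR. The sites are shown 5' to 3' on the transcript strand with the match in capitals.
Insr, chr8:3154864-3154893, minus: ggttagagatcACAGGGTggggtggggtgg
Irs1, chr1:82234937-82234966, minus: gacttgttaagACAGGGTttttaaattctt
Irs1, chr1:82233435-82233464, minus: acctcttggctACAGGGTgggccaaacgaa
Slc2a4, chr11:69943342-69943368, minus: ggggcaaaACAGGGTgggagagccacc
Tbc1d4, chr14:101442995-101443024, minus: tcacaaggatcACAGGGTcagagtagcctt
Foxo1, chr3:52350775-52350804, plus: agatgtggccgACAGGGTggctttcccagg
Foxo1, chr3:52352954-52352983, plus: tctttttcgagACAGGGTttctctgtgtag
Fam13a, chr6:58933186-58933215, minus: actctgtgatcACAGGGTAgcagaggcatg
The sites of Foxo1 and Fam13a lie in GENCODE transcripts that run past the end of the RefSeq gene. No match was found in the 3' UTRs of Irs2, Akt2 and Pde3b. A match is a description of the letters, not a shown target.

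On chow, the members fell into an abundant and a scarce tier. In WT, Pde3b (85.7 ± 7.36 FPKM, SD, n = 3), Slc2a4 (77.6 ± 4.96), Fam13a (76.7 ± 23.6) and Akt2 (74.5 ± 6.65) made up the upper tier, and neighbours within it overlapped between libraries. Foxo1 followed at 22.3 ± 3.69, with no library as low as the highest of Irs2 (16.5 ± 1.82), which overlapped Insr (15.8 ± 1.49). Tbc1d4 was at 10.1 ± 0.147 and Irs1 lowest at 7.78 ± 0.525. In KO on chow the upper tier held the same 4 genes, with Fam13a first at 108 ± 9.52 and clear of the next gene. On HFD, Akt2 led in WT (65.1 ± 7.63) and KO (53.2 ± 7.84), clear of Pde3b in both. Fam13a had moved to second-lowest, at 4.44 ± 1.15 in WT and 3.59 ± 0.923 in KO, and Irs1 stayed lowest, at 2.49 ± 0.469 and 2.31 ± 0.361.

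**Figure D1:**
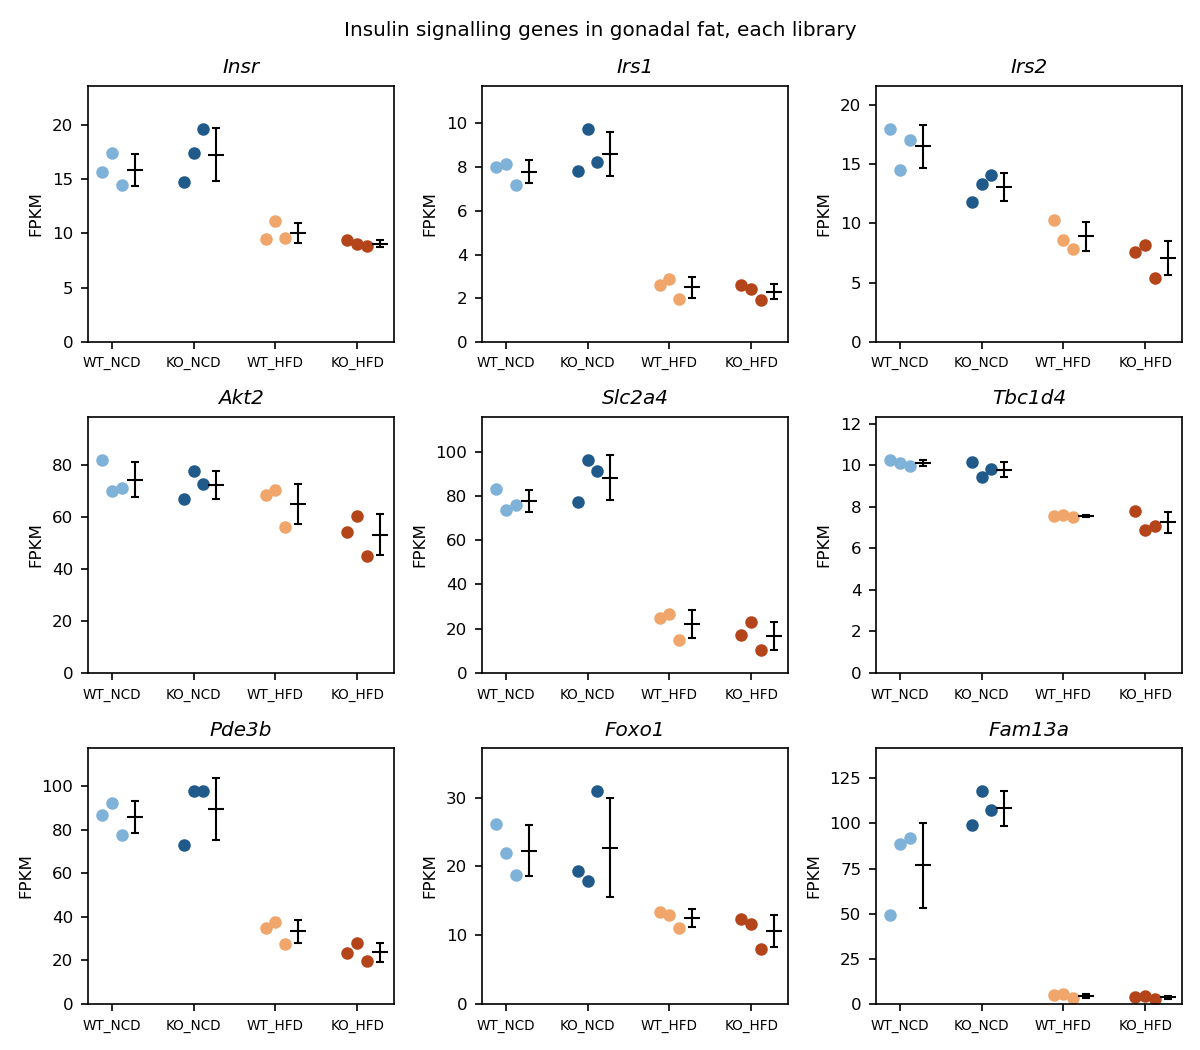
FPKM of the 9 insulin signalling genes in each of the 12 libraries (points), with the mean and SD of each group of 3 (bars); the vertical axes start at 0. The 6 HFD libraries lie below all 6 NCD libraries for every gene but Akt2, whose WT groups overlap; Fam13a drops from 49.5 to 118 FPKM on chow to at most 5.31 on HFD.

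The comparison of HFD with NCD within each genotype asked what the fat diet did to these genes. In WT mice 8 of the 9 fell, all but Akt2, and in KO mice all 9 fell. For these same genes no HFD library reached the NCD range, which also held for 33.3% of tested genes in WT and 30.5% in KO. The median difference of log2(FPKM + 1) was -0.82 in WT, where that of all 14340 tested genes was -0.03, and -1.01 in KO, where it was 0.04. The test was limma over all tested genes with Benjamini-Hochberg adjustment, called at an adjusted p of 0.05, and it called 25.3% of genes lower in WT and 26.2% in KO. Counting either direction it called 50.8% of genes in WT and 60.9% in KO, so a called gene was common. Adding 1 FPKM before the log understates the change of scarce genes such as Irs1.

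Insr, the receptor itself (NCBI gene 16337, chromosome 8, 3150922 to 3279649) was at 15.6, 17.4 and 14.5 FPKM in WT on NCD and 9.43, 11.1 and 9.53 on HFD. Its KO values were 14.7, 17.3 and 19.6 on NCD, then 9.36, 8.97 and 8.80 on HFD. The diets did not overlap in either genotype. Insr fell by 0.61 on the log2 scale in WT (SE 0.10, adjusted p = 0.000678) and by 0.85 in KO (adjusted p = 4.08e-05).

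Irs1 and Irs2 are the docking proteins through which the receptor reaches the lipid kinase. Irs1 (16367, chromosome 1, 82233105 to 82291439) was at 8.00, 8.17 and 7.19 FPKM in WT on NCD and 2.63, 2.88 and 1.97 on HFD. KO libraries gave 7.81, 9.76 and 8.23 on NCD, then 2.60, 2.42 and 1.90 on HFD. The highest HFD library, at 2.88, lay far under the lowest NCD library, at 7.19. The WT mean on HFD was 32.0% of that on NCD, and the KO mean 26.8%. Irs1 fell by 1.34 (SE 0.12, adjusted p = 1.01e-05) in WT and by 1.54 (adjusted p = 1.84e-06) in KO. Irs2 (384783, chromosome 8, 10984681 to 11008929) was at 18.0, 14.5 and 17.0 in WT mice on NCD, then 10.3, 8.58 and 7.82 on HFD. With KO mice it stood at 11.8, 13.3 and 14.1 on NCD, then 7.55, 8.17 and 5.42 on HFD. The diets were apart in both genotypes, and KO_HFD 8 was the lowest library. Irs2 fell by 0.82 in WT (SE 0.14, adjusted p = 0.000733) and by 0.82 in KO (adjusted p = 0.000509), leaving 53.9% and 54.0% of the chow level. On the FPKM scale, which is per transcript length, Irs2 outweighed Irs1 in every library, with an Irs1 to Irs2 ratio of 0.422 to 0.732 on NCD and 0.252 to 0.351 on HFD.

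Irs2 is known in mouse liver to respond to FOXO1 through an insulin response element, so the promoters were read for that element and for E-boxes, a motif of basic helix-loop-helix factors. The last 150 bases before each start site are shown 5' to 3' on the gene's strand (RefSeq, GRCm38.p6), with the element (CAAAACA or its complement) and the E-box (CANNTG) in capitals.
Irs1, chr1:82291440-82291589, minus: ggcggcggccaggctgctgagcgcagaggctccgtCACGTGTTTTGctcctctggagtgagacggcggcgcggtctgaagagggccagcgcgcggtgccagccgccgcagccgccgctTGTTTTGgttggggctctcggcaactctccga
Irs2, chr8:11008930-11009079, minus: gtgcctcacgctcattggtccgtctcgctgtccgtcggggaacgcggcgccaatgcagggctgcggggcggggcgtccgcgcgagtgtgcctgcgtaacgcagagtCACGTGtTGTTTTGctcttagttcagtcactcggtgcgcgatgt
Counting back from the start site, the element begins at -111 and -32 in Irs1 and at -37 in Irs2. Windows of 300 bases around the start were in the table for 6 of the 9 genes, as 9 windows because Akt2 has 4. The element was found on either strand in Irs1 and Irs2 and in 6.28% of all 32851 promoter windows, the E-box in 72.3% and the GC box (GGGCGG) in 35.7%. The FOXO core (GTAAACA) was in none of the 9 windows and in 3.65% of all. In Irs1 the E-box at -115 overlaps the first element, and in Irs2 the E-box at -44 ends just before the element. A CACGTG with the whole letters TGTTTTG overlapping it or ending within 10 bases after it, on either strand, was looked for after the windows were seen and occurs in 9 of the 32851 windows.

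AKT2 is the kinase isoform most tied to insulin's metabolic effects. Akt2 (11652, chromosome 7, 27591552 to 27640826) was at 82.1, 70.2 and 71.1 FPKM in WT on NCD, then 68.4, 70.5 and 56.4 on HFD. KO fat had 66.8, 77.6 and 72.8 on NCD, then 54.3, 60.5 and 44.9 on HFD. The WT diets overlapped, the KO diets did not. The difference was -0.19 in WT (95% interval -0.46 to 0.07, adjusted p = 0.198), and in KO Akt2 fell by 0.44 (SE 0.12, adjusted p = 0.00830). That the effect passed the threshold in KO alone does not show that the genotypes differed, and the test of that difference gave -0.25 (adjusted p = 0.456).

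The transporter GLUT4 and its regulator AS160 form the glucose uptake step. Slc2a4 (20528, chromosome 11, 69942286 to 69948216) was at 83.2, 73.7 and 76.0 FPKM in WT on NCD and 24.8, 26.5 and 14.7 on HFD. KO mice had 77.1, 96.4 and 91.4 on NCD, then 17.0, 23.1 and 10.3 on HFD. The highest HFD library, at 26.5, was far from the lowest NCD library, at 73.7. Slc2a4 fell by 1.82 in WT (SE 0.26, adjusted p = 0.000230) and by 2.39 in KO (adjusted p = 2.02e-05), leaving 28.3% and 19.0% of the chow mean. Tbc1d4 (210789, chromosome 14, 101442360 to 101609281), the GTPase-activating protein that holds GLUT4 vesicles back until AKT2 phosphorylates it, had the narrowest spread. It was at 10.3, 10.1 and 9.97 in WT on NCD, then 7.53, 7.58 and 7.48 on HFD. In KO libraries it was at 10.1, 9.41 and 9.80 on NCD, then 7.81, 6.88 and 7.06 on HFD. The diets did not overlap, though the gap between them was under 2 FPKM. Tbc1d4 fell by 0.38 in WT (SE 0.06, adjusted p = 0.000285) and by 0.39 in KO (adjusted p = 0.000157), leaving 74.5% and 74.1% of the chow mean.

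Pde3b (18576, chromosome 7, 114415222 to 114537938), the phosphodiesterase through which insulin restrains lipolysis, was at 87.1, 92.3 and 77.8 FPKM in WT on NCD and 35.0, 37.8 and 27.6 on HFD. The KO groups held 73.0, 97.9 and 98.1 on NCD, then 23.2, 28.1 and 19.6 on HFD. The diets were far apart, and all but 1 KO library on HFD lay below all WT libraries on HFD. Pde3b fell by 1.34 in WT (SE 0.16, adjusted p = 6.30e-05) and by 1.88 in KO (adjusted p = 3.11e-06). Foxo1 (56458, chromosome 3, 52268337 to 52350109) is the transcription factor that insulin inactivates; it was at 26.1, 22.0 and 18.8 in WT on NCD, then 13.4, 13.0 and 11.1 on HFD. KO samples had 19.3, 17.8 and 31.0 on NCD, then 12.3, 11.6 and 7.92 on HFD. KO_NCD 4 stood above every other library, and the diets did not overlap. Foxo1 fell by 0.78 in WT (SE 0.21, adjusted p = 0.0102) and by 1.01 in KO (adjusted p = 0.00166).

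Fam13a (58909, chromosome 6, 58933536 to 59024502) had the lowest log2 difference of the 9 genes on both scalings and in both genotypes. It was at 49.5, 88.7 and 91.9 FPKM in WT on NCD and 4.89, 5.31 and 3.13 on HFD. Its levels in KO were 99.2, 118 and 108 on NCD, then 3.60, 4.51 and 2.66 on HFD. The chow levels were high in all libraries but lowest in WT_NCD 1, while all HFD libraries sat within a few FPKM of each other. Fam13a fell by 3.81 in WT (SE 0.24, adjusted p = 1.22e-06) and by 4.59 in KO (adjusted p = 1.41e-07), and 0.0209% of tested genes had a lower value in either comparison. In FPKM the HFD mean was 5.79% of the chow mean in WT and 3.31% in KO.

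**Figure D2:**
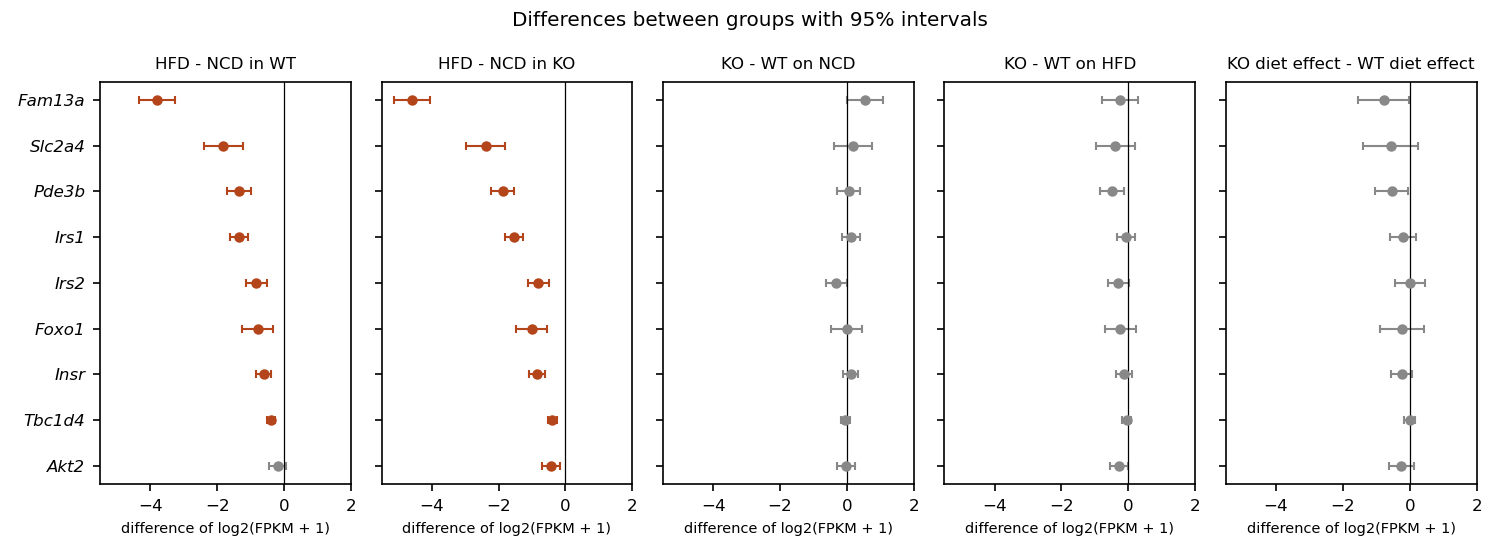
Differences of log2(FPKM + 1) for the 9 genes in the 5 comparisons, with 95% intervals; red marks an adjusted p under 0.05 and grey the rest. Each of the 9 genes was called lower on HFD except Akt2 in WT, and none was called in the 3 comparisons that involve genotype.

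KO mice were set against WT on each diet to ask whether loss of the microRNA altered these genes. On NCD none of the 9 was called (adjusted p 0.967 to 0.998), where 0.0488% of all tested genes were. At an unadjusted p under 0.05 there were 2 of the 9, beside 10 of the 128 other tested pathway genes described further below. The share of all tested genes at that unadjusted threshold was not counted. The 2 were Irs2 with -0.31 (95% interval -0.63 to -0.0017) and Fam13a with 0.54 (0.0053 to 1.08). The libraries of these 2 genes did not overlap between genotypes, with KO lower for Irs2 and higher for Fam13a, as for 7.96% and 1.49% of tested genes. Without WT_NCD 1, its lowest chow library, Fam13a had 0.26. For the other 7 genes the differences on NCD lay between -0.04 and 0.18. On HFD none was called either (adjusted p 0.111 to 0.735), against 0.802% of all genes. Again 2 had an unadjusted p under 0.05, beside 49 of the 128 other pathway genes. Such a p was thus common among the listed pathway genes on HFD, and its share of all tested genes was not counted. The 2 were Pde3b with -0.49 (95% interval -0.84 to -0.13) and Akt2 with -0.29 (-0.56 to -0.02). Slc2a4 had -0.39 with an interval of -0.97 to 0.19, and Irs2 -0.31 with one of -0.62 to 0.01. Without KO_HFD 8 these became -0.36 for Pde3b, -0.17 for Akt2, -0.10 for Slc2a4 and -0.15 for Irs2. All 9 differences on HFD were below 0 as deposited, though Irs1 was at 0.01 without KO_HFD 8 and 0.0042 without WT_HFD 2, and all 9 were above 0 relative to adipocyte markers, with no call under either. That centring moved the median of all tested genes by 0.52. Insr alone had no overlap between genotypes on HFD, lower in KO, as for 11.7% of tested genes.

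The diet effect itself was compared between genotypes by the interaction term. None of the 9 genes was called (adjusted p 0.244 to 0.988), where 0.272% of tested genes were. An unadjusted p under 0.05 was met by 2 of the 9, beside 32 of the 128 other pathway genes, and its share of all tested genes was not counted. The 2 were Fam13a at -0.78 (95% interval -1.54 to -0.03) and Pde3b at -0.54 (-1.04 to -0.04). Slc2a4 had -0.57 (-1.39 to 0.25), while Irs2 had 0.01 (-0.44 to 0.45) and Tbc1d4 -0.01 (-0.18 to 0.17). Without WT_NCD 1 Fam13a had -0.50, and without KO_HFD 8 Slc2a4 had -0.28. As deposited 8 of the 9 terms were below 0. Relative to adipocyte markers, where the median of all tested genes moved by 0.54, 7 were above 0, with Fam13a at -0.24, Slc2a4 at -0.03 and Pde3b at 0.0015, and none was called (adjusted p 0.146 to 0.996). Of the 6 genes with a seed match, all had an adjusted p of at least 0.258 here, and the 3 without one had at least 0.244, so no comparison by site could be drawn from calls.

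Adipocyte and macrophage markers moved with the diets. The summed FPKM of 12 adipocyte markers ran from 31240 to 32084 in WT_NCD, 29738 to 39415 in KO_NCD, 15578 to 19556 in WT_HFD and 10296 to 15588 in KO_HFD. In WT 7 of the 12 fell and none rose, and in KO 11 fell and 1 rose. All 12 macrophage markers rose in both genotypes, their sum running from 493 to 783 on NCD and from 2929 to 5736 on HFD. In bulk tissue, fewer cells of a type and less RNA per cell cannot be told apart. Of the 9 genes, 8 had their lowest value in KO_HFD 8, which also had the lowest adipocyte sum and the highest macrophage sum, and Tbc1d4 was lowest in KO_HFD 5. Leaving out KO_HFD 8 left 8 genes called lower in WT and 9 in KO. Without the 3 NCD libraries with ciliated epithelium transcripts, WT_NCD 1 is the only WT chow library, so that fit is a weak check of the WT diet effect. The part of macrophage transcripts in the falls was not tested.

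The members were therefore also fitted with each library centred on the mean log2 level of the 12 adipocyte markers, which itself was 1.05 lower on HFD in WT and 1.60 lower in KO. The single markers ranged widely, from -4.56 for Cfd to 0.22 in WT, and their median was -0.88 in WT and -1.19 in KO. A centring on their median or without Cfd was not fitted, so how far the results on that scale rest on Cfd was not tested. On that scale Fam13a and Slc2a4 still fell in both genotypes, Fam13a by 2.75 in WT and 2.99 in KO (adjusted p = 1.13e-07 and 1.04e-08) and Slc2a4 by 0.76 and 0.79 (0.000708 and 0.000304). Pde3b had -0.28 in both and Irs1 -0.28 in WT and 0.06 in KO, none past the threshold (adjusted p 0.116 to 0.771). On that scale 84.1% of all tested genes were called higher on HFD in WT and 93.0% in KO, and 1.07% and 0.690% were called lower. Akt2 and Tbc1d4 were among the genes called higher in both genotypes. Akt2 was higher by 0.86 in WT and 1.15 in KO (adjusted p = 0.000165 and 3.11e-06), Tbc1d4 by 0.67 and 1.21 (0.00840 and 4.72e-05). Insr, Irs2 and Foxo1 were called higher in KO and not in WT on this scale, and whether the genotypes differed there was tested by the interaction, with adjusted p of 0.384, 0.146 and 0.387.

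**Figure D3:**
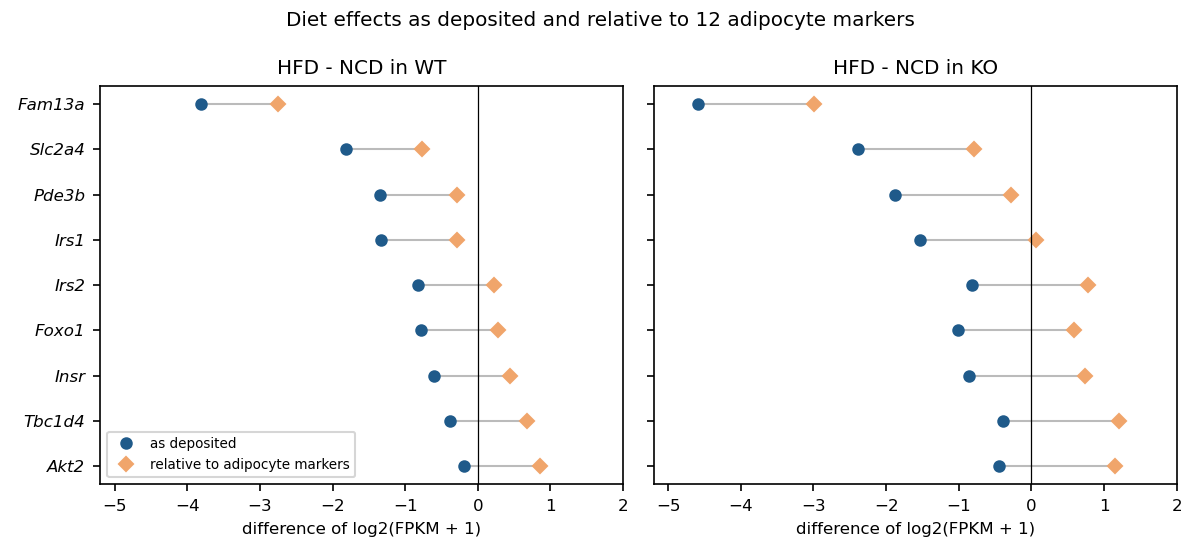
Diet difference of log2(FPKM + 1) for each gene as deposited (circles) and after centring every library on the mean of 12 adipocyte markers (diamonds), in WT and KO. The marker mean fell by 1.05 in WT and 1.60 in KO, which shifts every gene to the right; Fam13a and Slc2a4 stay well below 0 and Akt2 and Tbc1d4 lie above it.

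Within the 6 HFD libraries the members followed the adipocyte markers to differing degrees. For Akt2, Pearson's r with the marker mean was 0.99 and Spearman's rho 1 (exact permutation p = 0.00278 for each, adjusted p = 0.025 over 18 relations), and r was 0.99 without the libraries farthest out, WT_HFD 2 and KO_HFD 8. Pde3b had r = 0.97 with rho 1 (exact permutation p = 0.00278 for each, adjusted 0.025) and 0.99 without them. Irs2 had r = 0.94 (exact permutation p = 0.0111, adjusted 0.0286; rho 0.94, p = 0.0167, adjusted 0.05) and 0.98 without them. Slc2a4 (r = 0.94, rho 0.94) and Fam13a (r = 0.91, rho 0.94) had exact permutation p of 0.00833 and 0.0111 for r and 0.0167 for rho, adjusted to 0.0286 and 0.05, and r of 0.75 and 0.76 without them. Foxo1 (r = 0.93, rho 0.77), Irs1 (0.77, 0.83), Insr (0.68, 0.71) and Tbc1d4 (0.37, 0.20) had adjusted exact permutation p above the threshold, 0.0611 to 0.478 for r and 0.117 to 0.714 for rho. The same libraries gave the opposite sign with the mean of the macrophage markers. There Pde3b had r = -0.98 (exact permutation p = 0.0111, adjusted 0.0286; rho -0.89, adjusted 0.075) and -0.97 without WT_HFD 1 and KO_HFD 8, the farthest out on that measure. Akt2 had r = -0.95 (exact permutation p = 0.0167, adjusted 0.0375; rho -0.89, adjusted 0.075) and -0.90 without them, and Irs2 r = -0.89 (exact permutation p = 0.0111, adjusted 0.0286; rho -0.94, adjusted 0.05) and -0.85. The other 6 had r of -0.40 to -0.83 (adjusted exact permutation p 0.07 to 0.474) and rho of -0.26 to -0.77 (0.132 to 0.697). The 18 relations are the 9 genes with each marker mean. Both genotypes enter these correlations, and 3 libraries in each are too few for a value within a genotype. The permutation did not keep the genotypes apart, and the adipocyte marker mean was 8.76 in WT_HFD and 8.24 in KO_HFD. The p-values therefore also take in differences between genotypes and do not measure covariation alone. These relations were chosen after the values were seen, so their p-values are a description.

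A ratio of related genes inside a library does not depend on how the library was scaled. For that reason 7 members were each set against a relative that carries out a like step. The relative of Irs1 was Irs2, itself a member, and Fam13a entered no ratio. Of 7 ratios, 6 were lower on HFD by an exact permutation test of diet within genotype (two-sided, 400 arrangements, p = 0.005, the smallest it can give, adjusted p = 0.00583). The members enter with the same values whose falls are given above, so the ratios are not separate evidence of those falls. How many other pairs of genes would keep the diets apart was not counted. Slc2a4 against Slc2a1, the insulin-independent transporter GLUT1, went from 10.7 to 20.6 on NCD to between 0.887 and 4.46 on HFD, a log2 change of -1.97 in WT and -3.13 in KO. KO_HFD 8 was the 1 library where Slc2a1 exceeded Slc2a4. Tbc1d4 against Tbc1d1, its close relative prominent in muscle, went from 1.70 to 2.35 to between 0.628 and 1.02, with changes of -0.98 and -1.55. Akt2 against Akt1, the isoform tied to growth, went from 1.81 to 2.15 to between 0.719 and 1.53, with changes of -0.54 and -1.19.

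Irs1 against Irs2 changed by -0.76 in WT and -0.998 in KO, and Foxo1 against Foxo3 by -1.17 and -2.00. Pde3b against the cAMP-specific Pde4d changed by -2.00 and -2.15, though Pde4d was scarce, with group means of 0.994 to 1.57 FPKM, and its ratio on NCD ranged from 53.2 to 265. In 6 of these ratios all 12 libraries kept the diets apart. Insr against Igf1r, the receptor for IGF1, did not pass, with ratios of 4.53 to 11.3 on NCD and 4.99 to 6.81 on HFD (exact permutation p = 0.23). Of the relatives, Akt1 rose in WT and KO (0.33 and 0.72, adjusted p = 0.00293 and 9.31e-06), and so did Tbc1d1 (0.48 and 0.97, adjusted p = 0.00528 and 3.54e-05). Slc2a1 and Foxo3 rose in KO (0.58 and 0.82, adjusted p = 0.0120 and 0.000235), with 0.09 and 0.30 in WT (adjusted p = 0.677 and 0.0660). Igf1r (-0.39 and -0.25) and Pde4d (0.36 and 0.05) were not called in either genotype. Akt1, Tbc1d1 and Slc2a1 are also expressed by non-adipocytes, whose share of these ratios was not tested.

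**Figure D4:**
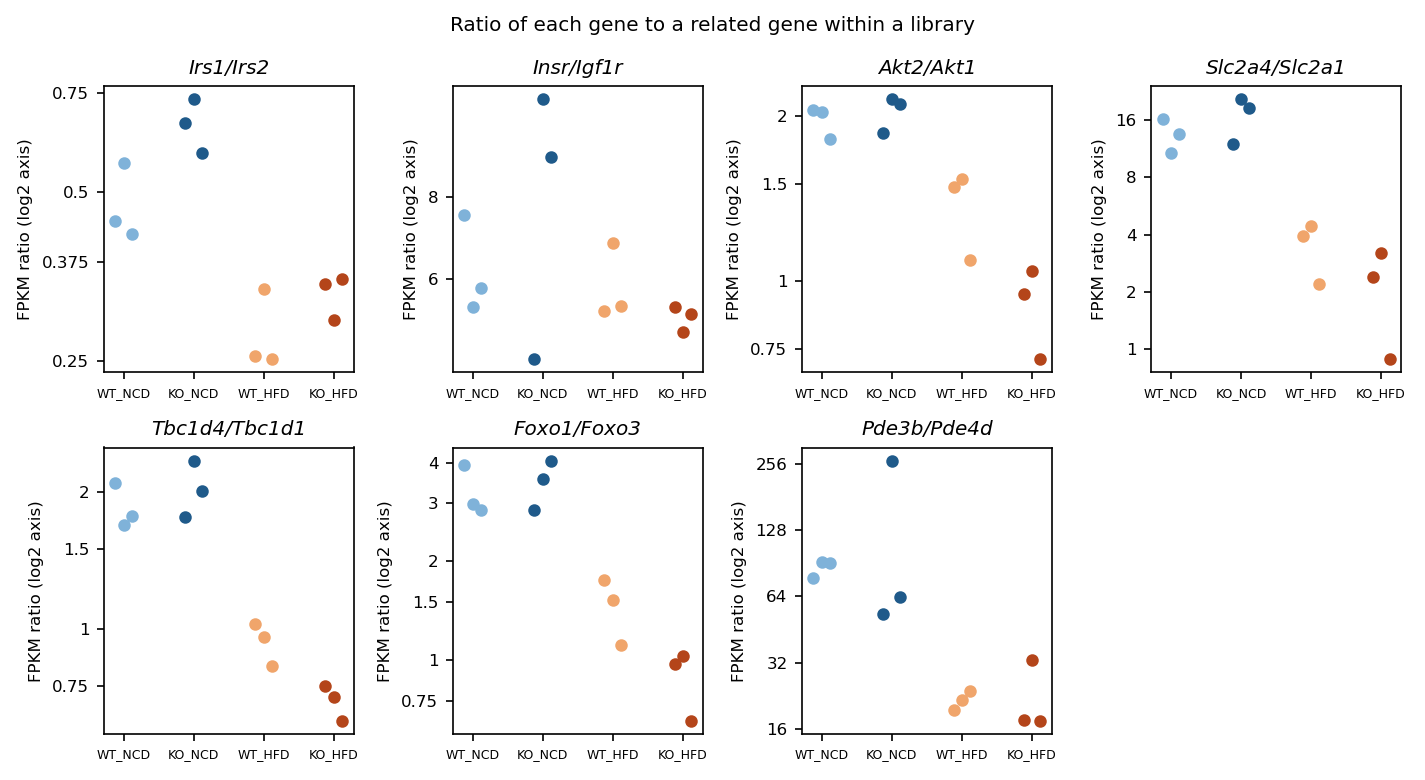
Ratio of FPKM of each of 7 genes to a related gene within each of the 12 libraries, on log2 axes; points are libraries, coloured by group. All HFD points lie below all NCD points in 6 panels; for Insr/Igf1r they overlap.

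Around the 9 genes, 133 further genes of the pathway were grouped by role in 7 lists, of which 128 were tested. In WT 43 rose and 35 fell with HFD (33.6% and 27.3%, against 25.4% and 25.3% of all tested genes), and in KO 53 rose and 36 fell (41.4% and 28.1%, against 34.6% and 26.2%). These shares of all tested genes are the background for the counts of each list. The median difference of the 128 was 0.03 in WT and 0.09 in KO, near that of all tested genes. The genes named by list from Irs3 to Pde7b each passed in both genotypes, with adjusted p of at most 0.00350 in WT and 0.000985 in KO.

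Among 14 tested receptors and adaptors, 5 rose and 3 fell in WT, and 7 rose and 4 fell in KO. Irs3, the docking protein found in rodent fat, fell with Irs1 and Irs2, from 20.6 ± 1.92 to 10.7 ± 1.66 FPKM in WT (-0.89, adjusted p = 0.000966) and from 20.1 ± 0.467 to 7.83 ± 2.07 in KO (-1.29, adjusted p = 4.98e-05). Igf2r, the clearance receptor for IGF2, rose from 8.67 ± 0.680 to 26.3 ± 6.96 in WT and from 8.84 ± 2.25 to 40.0 ± 11.0 in KO. The adaptors Dok1 (1.12 in WT, 1.63 in KO) and Grb2 (0.71, 1.18) rose as well. Of 22 genes of the PI3-kinase cascade, 6 rose and 4 fell in WT, and 7 rose and 3 fell in KO. Pik3cd, which encodes the catalytic subunit that predominates in leukocytes, rose from 3.19 ± 0.372 to 10.6 ± 1.72 in WT and from 2.55 ± 0.0368 to 15.1 ± 1.53 in KO. Gsk3b, the kinase that restrains glycogen synthase, rose by 0.54 and 0.60, and Prkci, an atypical protein kinase C, fell by 0.57 and 0.59.

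Of 19 brakes on insulin signalling, 6 rose and 5 fell in WT, and 7 rose and 4 fell in KO. Ptpn1, the phosphatase PTP1B that dephosphorylates the receptor, rose from 10.2 ± 0.296 to 19.4 ± 2.48 in WT (0.85, adjusted p = 6.26e-05) and from 9.21 ± 0.571 to 24.4 ± 3.05 in KO (1.31, adjusted p = 1.73e-06). Ppp2r5b, a subunit that directs a phosphatase to AKT, rose by 0.85 and 0.73. Fkbp5, a glucocorticoid-induced cochaperone, fell by 1.67 in WT and 1.60 in KO.

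Of 23 genes of GLUT4 vesicle traffic, 8 rose and 8 fell in WT, and 11 rose and 7 fell in KO. The median difference of the list was 0.12 in WT and 0.26 in KO. Vamp2, the vesicle SNARE, fell by 0.81 in WT and 0.72 in KO, Sort1, which encodes the sorting receptor sortilin, by 0.65 and 0.88, and Aspscr1, which encodes the tether TUG, by 0.47 and 0.45. Myo5a, an actin motor, rose by 0.91 and 1.37. Another 11 tested genes were listed, by gene family and not by substrate, as other hexose carriers and hexokinases. Of these, 5 rose and 5 fell in WT, and 6 rose and 5 fell in KO. Hk3, a hexokinase of myeloid cells, rose from 1.45 ± 0.0296 to 20.5 ± 5.63 FPKM in WT and from 1.19 ± 0.227 to 39.7 ± 12.8 in KO. The carrier family genes Slc2a3, Slc2a12 and Slc2a13, not all of which need carry glucose, fell in both genotypes. They fell by 1.52, 1.17 and 1.59 in WT and by 1.66, 1.17 and 1.42 in KO.

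Of 19 tested genes of the FOXO family or driven by FOXO, 6 rose and 8 fell in WT, and 7 rose and 9 fell in KO. Klf15, a factor known to induce Slc2a4 in adipocytes, fell by 2.02 in WT and 2.55 in KO, from 28.9 ± 1.03 to 6.56 ± 1.93 FPKM and from 31.5 ± 2.03 to 4.73 ± 1.65. Txnip, an inhibitor of glucose uptake, fell by 1.05 and 0.85. Trp53inp2, an autophagy gene, rose by 2.06 and 1.37, and Sesn1, a stress-induced regulator of mTORC1, by 0.69 and 1.04. Of 20 genes of the cAMP arm that Pde3b opposes, 7 rose and 2 fell in WT, and 8 rose and 4 fell in KO. Adrb3, the receptor that starts lipolysis in fat cells, fell by 4.02 and 4.88, from 382 ± 11.1 to 23.4 ± 7.32 in WT and from 444 ± 86.3 to 14.6 ± 5.31 in KO. Adcy3, an adenylyl cyclase, rose by 1.05 and 1.47, and the phosphodiesterases Pde7a (1.08, 0.57) and Pde7b (0.81, 0.94) rose in both genotypes.

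**Figure D5:**
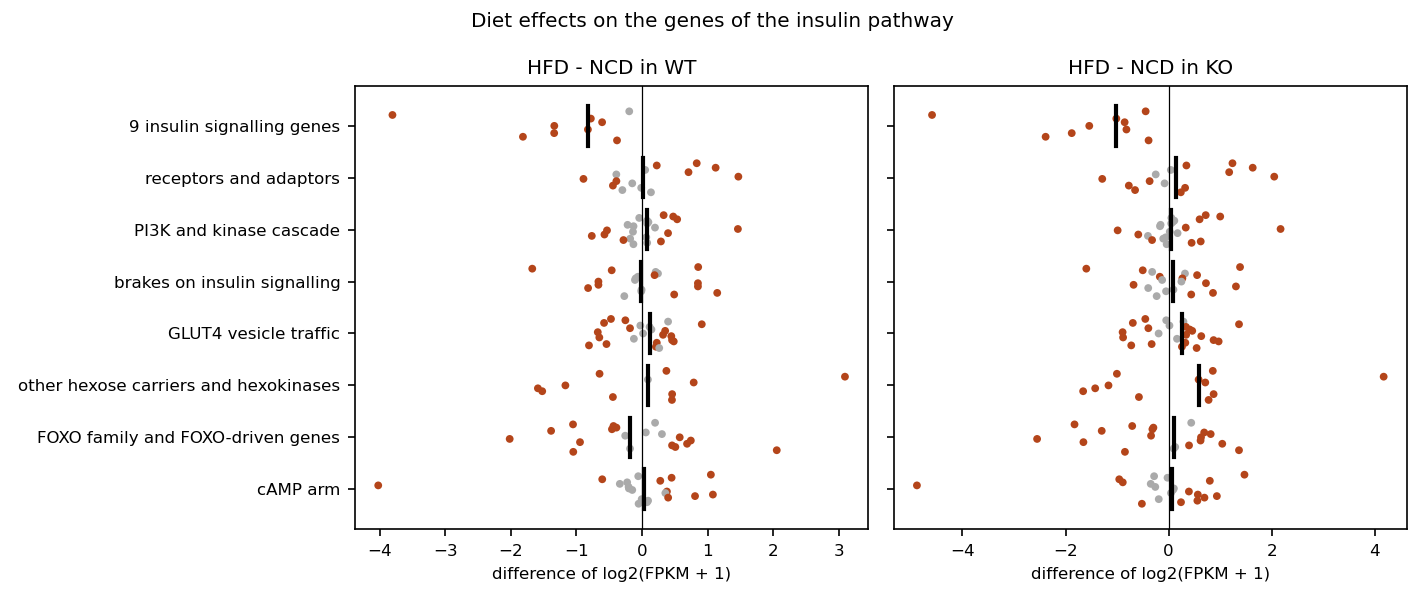
Diet difference of log2(FPKM + 1) for the 9 genes and for the 7 lists of other pathway genes, in WT and KO; each point is a gene, red where the adjusted p was under 0.05, and the black bar is the list's median. The 9 genes lie below 0 as a group, and the other lists spread to both sides of it.

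Between genotypes, none of the 128 was called on NCD, against 0.0488% of all tested genes, with 10 at an unadjusted p under 0.05. On HFD 3 were called (2.34%, against 0.802% of all tested genes), with 49 at an unadjusted p under 0.05. Since 2 of the 3 fall outside the rule for naming genes, they were chosen after their values were seen. Fbxo32, a FOXO-driven ubiquitin ligase, stood at 2.87 ± 0.0843 FPKM in WT against 4.61 ± 0.461 in KO (0.53, adjusted p = 0.0154), and Sod2, mitochondrial superoxide dismutase, at 44.4 ± 1.74 and 32.4 ± 2.26 (-0.44, adjusted p = 0.0186). Adcy3 was at 12.6 ± 1.45 and 18.8 ± 1.40 (0.55, adjusted p = 0.0286). Without WT_HFD 1, WT_HFD 2 or KO_HFD 8 none of the 3 was called, with adjusted p of 0.0525 to 0.126, and Adcy3 was also lost without WT_NCD 2, WT_NCD 4 or KO_HFD 3. The interaction called 1 of the 128 (0.781%, against 0.272% of all tested genes), with 32 at an unadjusted p under 0.05. For none of these comparisons was the share of all tested genes at that unadjusted p counted. The gene called was Fbxo32 (0.63, adjusted p = 0.0449). Its call was lost in 11 of 12 fits that each left out 1 library, and held without KO_NCD 2. Over the 12 fits it had 0.58 to 0.70 and adjusted p of 0.0389 to 0.163. In 5 of those fits, without WT_NCD 1, WT_NCD 4, KO_NCD 3, KO_NCD 4 or WT_HFD 1, the interaction called no gene. The number of genes called between genotypes on HFD went from 115 to between 17 and 953 when single libraries were left out.

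Pearson's r of log2(FPKM + 1) between members over the 12 libraries ran from 0.71 for Akt2 and Tbc1d4 to 0.99 for Irs1 and Fam13a, as a description over libraries that share the diet contrast. The non-member genes with patterns most like each were Gpd2, Met and Kat2b for Insr (r 0.98 to 0.99), Kdsr, Sqor and Adrb3 for Irs1 (0.99) and Sspn, Mfn2 and Fbxw8 for Irs2 (0.98). For Akt2 they were Cpped1, Fbxo9 and Nfib (0.97 to 0.98), for Tbc1d4 Acy1, Trim45 and Amotl2 (0.99) and for Foxo1 Snrk, Wwc2 and Fry (0.99). Slc2a4 was closest to Ivd, Agmo and Fbxo21 (0.99 to 1.00) and Pde3b to Ppm1b, Pm20d2 and Agmo (0.99). Agmo, which encodes alkylglycerol monooxygenase, is in the first 3 for both. Fam13a was closest to Nap1l3, Oxld1 and Ccdc62 (0.99).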

How the data were processed

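Polyadenylated RNA of gonadal fat was made into stranded libraries with a TruSeq kit, per the labels' protocols. The authors deposited FPKM values per NCBI gene ID and library, per the file headers. StringTie 1.3.4d, HISAT2 2.1.0, DESeq2, Trimmomatic, bcl2fastq 2.20.0 and build mm10 were listed, per the submitters' processing notes, with no role given for each. FPKM is relative within a library, so a rise of abundant transcripts lowers others.

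Symbols were matched for 30196 IDs, with 72 unmatched. Columns were tied to groups by header. Genes at 1 FPKM or more in at least 3 of 12 libraries (14340) were tested with limma 3.58.1 in R 4.3.3 on log2(FPKM + 1), with 4 group means, 8 residual degrees of freedom, a mean-variance trend and Benjamini-Hochberg adjustment. All 9 genes passed. The fit was tested on simulated data. Ratios were tested by going through all arrangements directly, and correlations with scipy 1.17.1.

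The 9 genes and all lists were chosen with earlier results of these data known. Named were all 9, up to 4 called genes a list by lowest p in WT, ratio partners, defining markers and the 3 most alike genes. A gene that this rule picked is not reported here. Alternatives covered pseudocount, filter, scaling, spread, groups fitted, ciliated libraries and single libraries left out.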

Additional observations from a re-analysis of the deposited data

How the results depend on the processing

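With 3 libraries a group and no counts, small genotype differences cannot be resolved and counting error is unknown. The member counts of 8 (WT diet), 9 (KO diet) and 0 (genotype and interaction) held under every alternative but centring on adipocyte markers, which called 4 in WT and 7 in KO; leaving out each library gave 8 to 8, 9 to 9 and 0 to 0. That centring turned the sign in WT for Insr (0.45), Irs2 (0.23), Akt2 (0.86), Tbc1d4 (0.67) and Foxo1 (0.27). In KO it did so for Insr (0.74), Irs1 (0.057), Irs2 (0.78), Akt2 (1.15), Tbc1d4 (1.21) and Foxo1 (0.58). It adds 1.05 and 1.60 by construction, the fall of the marker mean, while the marker medians were -0.88 and -1.19. How far these signs rest on the low marker Cfd was not tested. The 6 of 7 ratios called became 7 with log2(FPKM + 1) of each gene, where Insr/Igf1r gave -0.41 (adjusted p = 0.045). Leaving out each library gave 6 to 7, with Insr/Igf1r at -0.52 (adjusted p = 0.03) without KO_NCD 2. Without the ciliated libraries Insr/Igf1r gave -0.66. Every fit without the ciliated libraries has WT_NCD 1 as its only WT chow library, so it is a weak check. The KO diet split of 4967 higher and 3763 lower genes became 3824 and 5188 on median centring, which moved all genes by -0.15, and 3989 and 4814 on quantile normalization (-0.11). Over all tested genes, the WT diet count of 7279 became 3878 without the ciliated libraries and 12206 on adipocyte centring (KO, 8730 to 13441). The genotype count of 7 on NCD became 14 unfiltered, 11 in a fit of those groups alone, 4 without the ciliated libraries and 6 to 15 leaving out libraries. On HFD 115 became 4502 on adipocyte centring, 24 in a fit of those groups alone, 25 without the ciliated libraries, and 17 without WT_HFD 1 to 953 without WT_HFD 4. The interaction count of 39 became 24 unfiltered, 13 on median centring, 4 on quantile normalization, 12 without mitochondrial genes, 5 on adipocyte centring, 17 without the ciliated libraries and 0 to 168 leaving out libraries. The causes were not tested. No paired analysis was possible because the columns carry animal numbers that differ from the replicate numbers of the labels.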

Other observations

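Among the 6 HFD libraries, WT_HFD 4 ranked 2 or 3, counted from the lowest, for 8 of the 9 insulin signalling genes. Its adipocyte sum (15578 FPKM) and macrophage sum (3865) lay beside those of KO_HFD 5 (15588 and 4252). Endothelial markers, cells that insulin must cross to reach the adipocyte, summed to 126 FPKM in KO_HFD 8 and to 216 to 329 in the other HFD libraries.

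Brown adipocyte and lymphocyte markers, from cells that also use GLUT4 or insulin, were scarce. The 8 brown markers summed to 13.5 to 18.8 FPKM on NCD and 15.2 to 36.3 on HFD, and the 8 lymphocyte markers to 4.21 to 18.9 over all libraries. Fibroblast and progenitor markers, whose cells carry Insr and Igf1r, rose for 5 of 8 in WT and 7 of 8 in KO, their sum running from 788 to 955 on NCD and from 1472 to 2376 on HFD.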
